A study of Mus musculus with 2 samples.

Results

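The genes described here are Sele, Selp, Vcam1, Icam1 and Icam2, 5 of the 31053 genes in the matrices, which encode surface proteins that endothelial cells (ECs) present to leukocytes. They were chosen for this role, with earlier results of these data known. Lungs of wild type C57BL/6 mice were digested 6 h after tail vein injection of PBS (control) or of 200000 B16-F10 cells per mouse (metastatic), and Pecam1-PE positive cells were sorted, with no gate against leukocytes named in the labels. B16-F10 is a mouse melanoma line that seeds the lungs when injected intravenously, so the mice model tumor cell arrival rather than spontaneous spread. Each group was 1 library made from 2 pooled mice, and the study's methods give male mice of 8 to 10 weeks for this tail vein model.

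A barcode was taken as a cell if it held 1000 to 5000 genes and if mitochondrial transcripts made up less than 20% of its UMIs (unique molecular identifiers, which count captured RNA molecules). The 7134 control and 6466 metastatic cells were put into classes by markers that include none of the 5 genes. General capillary (gCap-like) cells held UMIs of at least 2 of Gpihbp1, Aplnr, Kit and Lpl, met none of the other rules and numbered 5020 and 4519. Aerocyte-like (aCap) cells held at least 2 of Ednrb, Fibin and Tbx2 (1364 and 1086 cells), vein-like cells at least 2 of Slc6a2, Car8 and Bst1 (247 and 304), and artery-like cells at least 2 of Gja5, Bmx and Fbln5 (63 and 59). A further 394 and 466 cells had no class. The 46 and 32 cells of several classes met more than 1 of the aerocyte, vein and artery rules. In every class and library at least 98.7% of the cells held 2 or more of 5 pan-endothelial markers, whereas among cells of no class 32.7% and 29.6% held Ptprc, which encodes the leukocyte protein CD45. Both libraries share 16 called barcodes. Since each group was 1 library, no test between groups was possible, and "higher" or "lower" compares these 2 libraries only. Intervals in parentheses are exact 95% intervals that cover counting error, not the variation between mice.

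Leukocytes leave the blood in steps. E-selectin and P-selectin on ECs catch passing cells by their sugar-bearing ligands so that they roll, and P-selectin is stored with von Willebrand factor in Weibel-Palade bodies of ECs and in granules of platelets. Rolling cells then stop when their integrins bind the immunoglobulin family proteins: VCAM-1 binds VLA-4, ICAM-1 binds LFA-1 and Mac-1, and ICAM-2, which resting endothelium carries, binds LFA-1. Sele, Vcam1 and Icam1 are textbook targets of NF-kB after TNF or IL-1. In most organs rolling occurs in venules, whereas in the lung much leukocyte arrest takes place in the capillaries.

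The stretch before the start of a gene is where such factors bind, and it is shown for the 3 members found in the RefSeq promoter table of GRCm38.p6, since Sele and Icam1 were among the genes with higher levels in metastatic capillaries and Selp was not. Each is the 250 bases upstream of the RefSeq start on the plus strand, 5′ to 3′, and lies outside the RefSeq transcript, at chr1:164047984-164048233 for Sele, chr1:164115014-164115263 for Selp and chr9:21015690-21015939 for Icam1. Capitals mark matches on either strand to a kB-type motif (GGNNNTTCC) or to a GAS-type motif of STAT factors (TTCNNNGAA).
Sele: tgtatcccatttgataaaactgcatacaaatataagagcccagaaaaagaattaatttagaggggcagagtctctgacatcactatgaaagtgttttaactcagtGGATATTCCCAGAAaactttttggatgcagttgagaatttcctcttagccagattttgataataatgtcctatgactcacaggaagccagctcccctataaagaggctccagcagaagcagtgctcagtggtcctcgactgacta
Selp: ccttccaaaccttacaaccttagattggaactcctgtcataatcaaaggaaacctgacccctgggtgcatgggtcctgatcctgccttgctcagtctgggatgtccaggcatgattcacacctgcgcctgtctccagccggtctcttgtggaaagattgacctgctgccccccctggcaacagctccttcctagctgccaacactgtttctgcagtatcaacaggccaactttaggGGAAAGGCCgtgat
Icam1: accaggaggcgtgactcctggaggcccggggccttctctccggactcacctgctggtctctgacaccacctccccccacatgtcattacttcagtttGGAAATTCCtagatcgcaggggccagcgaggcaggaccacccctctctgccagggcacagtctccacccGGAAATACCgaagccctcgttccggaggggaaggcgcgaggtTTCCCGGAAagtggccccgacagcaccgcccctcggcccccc

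Icam1 held 2 kB-type matches, 153 to 145 and 84 to 76 bases before its start, and 1 GAS-type match at 42 to 34. Sele held 1 of each, at 145 to 137 and 140 to 132, which overlap. Selp held 1 kB-type match, 14 to 6 bases before its start, and no GAS-type match. Of 32851 promoters of the same length, 15.7% held the kB-type motif and 7.02% the GAS-type motif. The longer NF-kB consensus was in 7.25% of promoters and in none of the 3. The motifs were chosen after the sequences had been read, and a match describes letters only. Vcam1 and Icam2 had no entry. In the GENCODE M21 annotation of GRCm38, Sele (ENSMUSG00000026582) spans chromosome 1, 164048234 to 164057677, and Selp (ENSMUSG00000026580) the same chromosome, 164115264 to 164150026, both on the plus strand. Icam1 (ENSMUSG00000037405) spans chromosome 9, 21015985 to 21028817 (plus), Vcam1 (ENSMUSG00000027962) chromosome 3, 116109949 to 116129688 (minus), and Icam2 (ENSMUSG00000001029) chromosome 11, 106377656 to 106388075 (minus). All are protein coding. The GENCODE start of Icam1 does not directly follow the stretch shown, which ends at 21015939, so its match positions count from the RefSeq start.

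The first question was where each adhesion molecule is carried in the lung endothelium. Levels are UMIs of the gene per 1000000 UMIs of a class (CPM). Selp and Vcam1 were genes of the large vessels, ordered vein over artery over gCap over aerocyte in both libraries with no overlap of neighboring intervals. Icam1 and Icam2 were carried by capillaries as well, with aerocyte-like cells above gCap-like cells in both libraries. Sele was at the edge of detection.

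**Figure D1:**
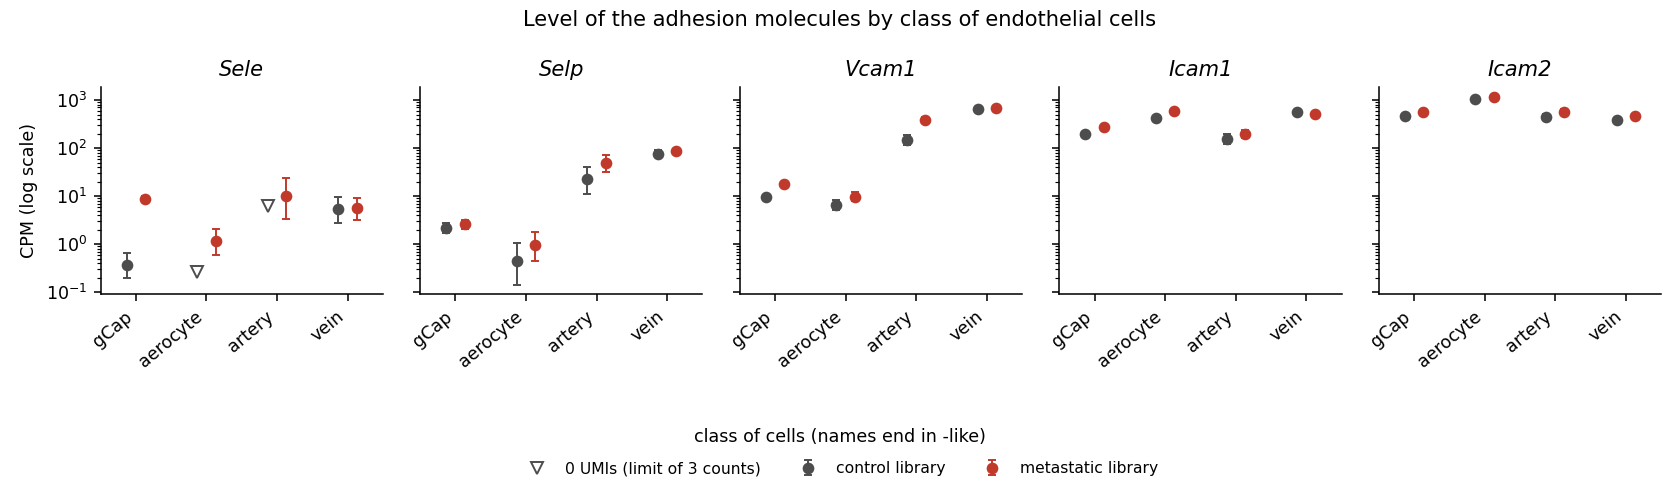
Level of each gene (CPM, log scale) by class of cells, control in gray and metastatic in red, 1 point per library. Bars are exact 95% Poisson intervals and open triangles are the limit that 0 UMIs allow (3 counts); Selp and Vcam1 climb from aerocyte-like to vein-like cells, from 6.62 to 641 CPM for Vcam1 in the control library.

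Vcam1 showed the steepest order. In the control library its level was 641 CPM (608–675) in vein-like, 148 CPM (116–186) in artery-like, 9.63 CPM (8.58–10.8) in gCap-like and 6.62 CPM (5.21–8.30) in aerocyte-like cells. In the metastatic library the same classes held 671 (641–703), 387 (333–446), 17.5 (16.1–19.1) and 9.80 CPM (7.90–12.0). Vein-like cells stood 66.5-fold (58.8–75.5) over gCap-like cells in the control and 38.3-fold (34.7–42.3) in the metastatic library. They made up 3.46% and 4.70% of the cells and held 58.6% and 59.6% of all Vcam1 UMIs. Even there it was not in every cell: after each cell was thinned to 2000 UMIs, which removes differences in depth, 36.6% and 42.6% of vein-like cells held a Vcam1 UMI (60.7% and 64.5% unthinned). Lymphoid-like cells, a background that should lack Vcam1, held 0 UMIs in 40 control and 42 metastatic cells, which allows shares of up to 7.5% and 7.14%, at median depths of 4614.5 and 5113 UMIs against 8422 and 8157 in vein-like cells.

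Selp followed the same order at lower counts. Its level was 76.6 CPM (65.5–89.1) in control and 85.6 CPM (74.9–97.4) in metastatic vein-like cells, and 22.3 (11.1–39.9) and 49.3 CPM (31.6–73.4) in artery-like cells. Capillaries held little of it, 2.18 CPM (1.70–2.75) and 2.61 CPM (2.06–3.25) in gCap-like and 0.441 and 0.959 CPM (5 and 9 UMIs) in aerocyte-like cells. Thinned, 7.32% and 10.9% of vein-like cells held a UMI of Selp. Platelets also carry this RNA: barcodes with at least 3 platelet markers and no endothelial marker held 81.4 and 93.8 CPM. The gCap-like cells with 2 or more platelet markers (351 and 496 cells) held 7.20 and 7.04 CPM of Selp, and those with none 1.65 and 1.72 CPM. How much of the capillary Selp is platelet RNA was not tested.

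For Icam1 the leading class as counted differed between the libraries, with intervals apart in each. In the control library vein-like cells led with 553 CPM (522–585), followed by aerocyte-like (424, 412–436), gCap-like (192, 187–197) and artery-like cells (154, 121–193), and only gCap and artery overlapped. In the metastatic library aerocyte-like cells led with 586 CPM (571–602), followed by vein-like (512, 485–539), gCap-like (281, 275–287) and artery-like cells (197, 160–241), with every neighbor apart. Aerocyte-like cells therefore lay 2.21-fold and 2.09-fold over gCap-like cells. Metastatic vein-like cells with under 2 epithelial and under 2 myeloid markers held 588 CPM (553–624) of Icam1. This interval overlapped that of the metastatic aerocyte-like cells, which were not filtered in this way. By number, capillaries dominated: gCap-like cells held 48.1% and 52.4% of the Icam1 UMIs and aerocyte-like cells 37.5% and 33.9%. At 2000 UMIs per cell Icam1 was seen in 48.8% and 53.2% of aerocyte-like cells, in 48.8% and 51.5% of vein-like cells and in 26.1% and 31.2% of gCap-like cells. Lymphoid-like cells held it in 17.5% and 9.76% of cells, at 61.6 (31.8–108) and 47.5 CPM (23.7–84.9). These cells are no floor for Icam1, since whether they carry Icam1 of their own was not tested. The artery-like share of 17.5% in the control library did not exceed theirs, whereas the artery-like level of 154 CPM (121–193) did.

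Icam2 peaked in aerocytes. It reached 1036 CPM (1017–1055) and 1155 CPM (1133–1177) in aerocyte-like cells, 2.17-fold and 2.04-fold over gCap-like cells with 477 (469–484) and 565 CPM (557–574). Artery-like cells, with 448 (391–511) and 574 CPM (508–645), overlapped gCap-like cells in both libraries. Vein-like cells were lowest, at 389 (364–416) and 459 CPM (434–486), or 0.817-fold and 0.813-fold the gCap level, with overlap only between vein and artery in the control. Thus Icam2 was lowest in the class that led for Vcam1 and Selp. Thinned shares were 59.4% and 65.5% in gCap-like and 78.4% and 85.0% in aerocyte-like cells. Lymphoid-like cells, which are no floor for Icam2 either, held it in 15.0% and 17.1% of cells.

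The second question was which adhesion molecules differed 6 h after melanoma injection, and in which vessels. In gCap-like cells 3 of the 5 genes, Sele, Vcam1 and Icam1, were higher in the metastatic library by a log2 ratio of at least 0.5, the fold used here. The background was 6.19% of 12165 genes higher and 3.44% lower. In aerocyte-like cells 1 of 3 measured members (Vcam1) passed, against 5.5% higher and 2.61% lower of all genes, and in artery-like cells 1 of 3 (Vcam1 again), against 9.97% and 8.11%. In vein-like cells 0 of 4 passed, against 8.01% and 4.62%, but 2 of 18 alternatives changed this. Free RNA subtracted at a share summed over cells, which came to 8.52% of the control and 83.7% of the metastatic vein-like UMIs, gave 2.67 for Selp, 2.45 for Vcam1, 2.06 for Icam1 and -0.58 for Icam2. At the share of the median cell (6.53% and 4.08%) these ratios were 0.14, 0.03, -0.14 and 0.18. Without cells that held 2 or more markers of platelets, leukocytes, mesenchymal, epithelial or erythroid cells Selp was 0.56 and Vcam1 0.62. This left 75 of 247 control and 124 of 304 metastatic vein-like cells. A gene was measured where the class held at least 50 UMIs over both libraries, and no measured member was lower by this fold in any class. The median ratio of the members was 0.55 in gCap-like cells and 0.11 in vein-like cells, beside 0.02 and 0.02 over all genes.

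**Figure D2:**
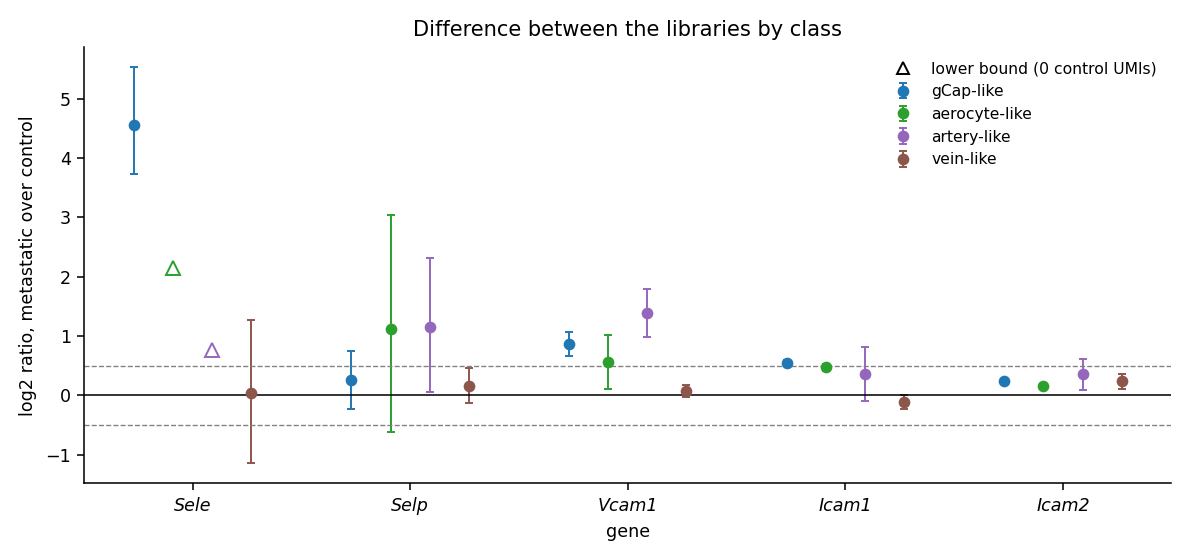
Log2 ratio of the metastatic over the control library for each gene, with 1 point per class and exact 95% counting intervals. Open triangles are lower bounds where the control held 0 UMIs and dashed lines mark 0.5 in each direction; the gCap-like ratio of Sele, 4.56, stands above all others, and the 5 vein-like points lie between -0.11 and 0.24.

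Sele had the widest difference. Its gCap-like level was 0.374 CPM (0.193–0.653; 12 UMIs in 3 cells) in the control and 8.85 CPM (7.82–9.97; 268 UMIs in 38 cells) in the metastatic library, which gives a log2 ratio of 4.56 (3.74–5.54). Aerocyte-like cells held 0 and 11 UMIs, at least 2.15 higher on the log2 scale when the control is set to 3 counts, but 1 control cell of several classes reverses this where it is counted in, to -1.62. Artery-like cells held 0 and 5 UMIs. Vein-like cells held 12 and 15 UMIs (0.04, -1.15 to 1.27), yet 11 of the 12 control UMIs came from 1 cell, and without the top cell of each library the ratio was 2.72. For Sele the gCap-like difference remained past 0.5 in all 18 alternatives, between 3.34 and 5.41.

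As counted, the ratio of Vcam1 was past 0.5 in every class but the veins that carry most of it. The ratio was 0.86 (0.66–1.07) in gCap-like cells, where 112 of 5020 and 176 of 4519 cells held a UMI, and 1.38 (0.99–1.79) in artery-like cells. In vein-like cells it was 0.07 (-0.03 to 0.17), and past 0.5 in the 2 alternatives named above. The aerocyte-like ratio of 0.57 (0.11–1.03) rests on few cells and turned to -1.36 when cells of 2 classes were counted in. The gCap-like ratio turned to -3.65 when free RNA was subtracted at a share summed over cells, a profile that holds 3 Vcam1 UMIs, and was 0.54 with the share of the median cell. Without likely doublets it was 1.33. The artery-like classes are small and differ in content: 2 metastatic cells held 2 or more lymphatic markers, and without them Vcam1 was 401 CPM and Selp 51.4 CPM. For Vcam1 in artery-like cells all 18 alternatives stayed past 0.5, from 0.73 to 1.65. The level rested on few cells, and the share of artery-like cells with a Vcam1 UMI did not separate the libraries. It was 28 of 63 control and 29 of 59 metastatic cells, or 23.8% (13.98–36.2) and 32.2% (20.6–45.6) thinned, with overlapping intervals. The 10 richest artery-like cells held 46 of 73 control and 142 of 188 metastatic Vcam1 UMIs, and 1 metastatic cell held 41.

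Icam1 differed less in size, and the difference was spread over many capillary cells. In gCap-like cells it went from 192 to 281 CPM, a ratio of 0.55 (0.50–0.60), and in aerocyte-like cells from 424 to 586 CPM, a ratio of 0.47 (0.41–0.53). The artery-like ratio was 0.36 (-0.09 to 0.81). The vein-like ratio was -0.11 (-0.22 to 0.0003), and turned to 2.06 only with free RNA subtracted at the summed share. Cells with 5 or more Icam1 UMIs made up 5.70% of control and 11.2% of metastatic gCap-like cells, and 28.5% and 38.95% of aerocyte-like cells. The 10 richest gCap-like cells held only 4.61% and 4.99% of the Icam1 UMIs, whereas for Sele in the metastatic library they held 82.5%. For Icam1 the gCap-like ratio fell under 0.5 in 2 of 18 alternatives, at 0.47 with 3 or more class markers and 0.45 with free RNA subtracted at the summed share.

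Icam2 and Selp differed less between the libraries as counted. Icam2 was higher by 0.25 (0.21–0.28) in gCap-like, 0.16 (0.12–0.19) in aerocyte-like, 0.36 (0.10–0.62) in artery-like cells, and by 0.24 (0.11–0.37) in veins, each under 0.5. Subtracting free RNA at the summed share turned Icam2 to -0.64 in gCap-like, -0.17 in aerocyte-like and -0.58 in vein-like cells, and at the share of the median cell it was 0.17, 0.11 and 0.18. Selp had ratios of 0.26 (-0.22 to 0.74) in gCap-like and 0.16 (-0.13 to 0.46) in vein-like cells, and 1.15 (0.06–2.32) in artery-like cells on 11 and 24 UMIs. Over all 4 classes the ratio of Selp was 0.53 (0.29–0.77), while its main source, the vein-like class, made up 3.46% (3.05–3.91) of called cells in one library and 4.70% (4.20–5.25) in the other. Without likely doublets this ratio was 0.27. The gCap-like ratio of Selp stayed under 0.5 in 13 of 17 alternatives, which ran from 0.18 to 1.62. It was 0.65 without cells that held epithelial or myeloid markers.

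RNA of other cells differed between the same classes. In gCap-like cells the summed level of 6 platelet genes was 187 CPM (control) and 288 CPM (metastatic), with 5 of 6 past 0.5, and Ptprc was at 9.44 and 13.9 CPM. The 5 erythroid genes summed to 1959 and 824 CPM and the 6 epithelial genes to 1910 and 1208 CPM. Among metastatic vein-like cells the 8 myeloid genes summed to 728 CPM, against 36.7 CPM in the control, and epithelial genes to 3716 against 190 CPM. In gCap-like cells no marker of these lists was at 0, and in control vein-like cells 1 myeloid marker was. Of 6 melanoma genes, which summed to 4.61 and 7.43 CPM in gCap-like cells, only Mitf was measured. Vein-like cells with under 2 epithelial and under 2 myeloid markers (175 and 216 cells) held Vcam1 at 780 and 823 CPM, Selp at 95.2 and 96.5 CPM, Icam1 at 620 and 588 CPM and Icam2 at 386 and 494 CPM. In gCap-like cells without any platelet marker Sele was at 0.269 and 7.36 CPM, Vcam1 at 8.38 and 19.6 CPM and Icam1 at 197 and 284 CPM. The part of other RNAs in the results was not tested.

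The cells that held Sele were then examined one by one. There were 9 in the control library, 0.126% (0.0577–0.239) of the cells with 68 UMIs, and 66 in the metastatic library, 1.02% (0.790–1.30) with 412 UMIs. Of the 66, 38 were gCap-like, 14 of no class, 6 aerocyte-like, 5 vein-like, 2 artery-like and 1 of several classes. Most were endothelial: 63 held Cdh5, which encodes VE-cadherin, and 1 held Ptprc. A few cells carried most of the RNA, since the top 8 held 60.0% of the metastatic UMIs and the richest held 59. In the control library 41 of 68 UMIs came from 1 cell of several classes, with 22094 UMIs in all, which also held 197 Vcam1 UMIs and was among the likely doublets. The free RNA profile held 0 Sele UMIs in each library, and lymphoid-like cells 1 and 0. Single Sele UMIs cannot be told apart from free RNA, whereas the 10 gCap-like cells of the metastatic library with 5 or more held 221 of the 268 UMIs.

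**Figure D3:**
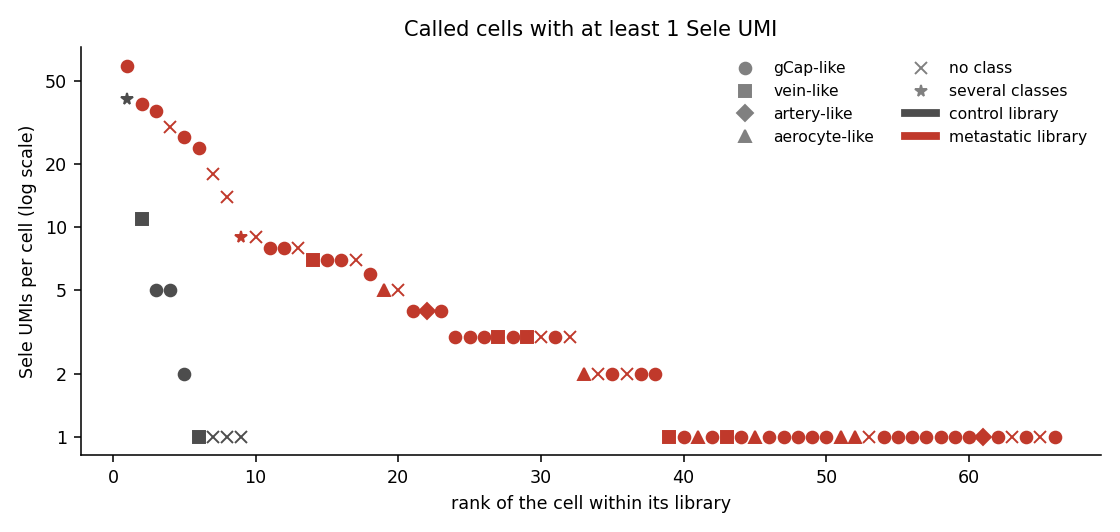
Sele UMIs (log scale) of each called cell that held any, ranked within its library, control in gray and metastatic in red, with the class as the marker shape. The metastatic cells run from 59 UMIs down to 1 and number 66; the control cells number 9, led by 1 cell with 41 UMIs.

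The 38 Sele-bearing gCap-like cells of the metastatic library were compared with the other gCap-like cells of that library. They held Icam1 at 1320 CPM against 270 CPM in the others, a log2 ratio of 2.29 (2.15–2.43), with a UMI in 32 of 38. Vcam1 was at 416 against 13.3 CPM but in 13 of 38 cells, and 1 cell held 70 of its 131 UMIs, without which the level was 200.2 CPM. Selp was at 31.7 against 2.30 CPM in 4 of 38, and at 16.1 CPM without the cell that held 5 of its 10 UMIs. Icam2 did not separate them, at 505 against 566 CPM (-0.17, -0.40 to 0.06). Gpihbp1, which anchors lipoprotein lipase to the capillary wall, was in all 38, at 933 against 1424 CPM. It is among the markers that define the gCap-like class, so its presence is no separate sign of identity.

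Genes with the widest gap between these cells and the rest were chosen after their values were seen. They included the metallothionein gene Mt1, at 1526 against 63 CPM and seen in 19 of 38 cells. Akap12, a scaffold of protein kinase A, was at 4354 against 469 CPM and was seen in 36 of 38 cells. Of the genes by which the study names reactive capillaries (rCap), Inhbb, a subunit of activin B, was at 371 against 28.8 CPM in 19 of 38 cells, Bcl3, a nuclear partner of NF-kB, at 235 against 41.5 CPM in 25, and the kinase gene Pim3 at 390 against 257 CPM in 26. Such cells were sampled once, from 1 library.

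The third question was whether the molecules were carried by the same cells. Shares below are at 2000 UMIs per cell, so that deeper cells do not appear to share more genes. For Sele and Icam1 in metastatic gCap-like cells, 78.9% (54.4–93.9) of the 19 cells with Sele also held Icam1, against 30.95% (29.6–32.3) of cells without. For Sele and Inhbb it was 36.8% (16.3–61.6) against 3.85% (3.30–4.46). For Sele and Vcam1 2 of the 19 held both, and for Sele and Selp 1. Among all metastatic gCap-like cells at this depth, 1.95% (1.56–2.40) held Vcam1 and 0.448% (0.274–0.692) held Selp. Among the richest gCap-like cells, unthinned, those with 59, 39, 36 and 27 Sele UMIs held 6, 8, 22 and 39 Icam1 UMIs. They held 1, 0, 0 and 0 Vcam1 UMIs and no Selp. The next such cell, with 24 Sele UMIs, held 1 Icam1 and 6 Vcam1 UMIs. Unthinned, 13 of the 38 Sele-bearing gCap-like cells held Vcam1, against 3.89% of all metastatic gCap-like cells. In metastatic vein-like cells the cells with Sele were few and carried the others as well: for Sele and Vcam1, Sele and Selp, and Sele and Icam1, 4 of 4 held both. Unthinned there were 5 such cells, and 1 of them held 3 Sele, 1 Vcam1 and 2 Icam1 UMIs but 0 Selp UMIs.

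Vcam1 and Icam1 went together in gCap-like cells of both libraries. There, 47.9% (33.3–62.8) of control cells with Vcam1 held Icam1, against 25.9% (24.7–27.1) without, and 59.8% (48.7–70.1) against 30.6% (29.2–32.0) in the metastatic library. In aerocyte-like cells 4 of 10 control and 6 of 9 metastatic cells with Vcam1 held Icam1, against 48.9% (46.2–51.6) and 53.1% (50.0–56.1) without, too few to show a difference. In vein-like cells the corresponding shares were 54.4% (43.6–65.0) against 45.5% (37.5–53.7) and 60.5% (51.5–69.0) against 44.8% (37.3–52.5), and their intervals overlapped. For Selp and Vcam1, the venous pair, 75.8% (57.7–88.9) of the 33 metastatic vein-like cells with Selp held Vcam1, against 38.5% (32.7–44.6) without. The control values, 55.6% (30.8–78.5) of 18 against 35.1% (28.9–41.7), overlapped.

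Icam1 and Icam2 did not go together cell by cell in gCap-like cells. Icam2 was in 57.3% (54.6–60.0) of control cells with Icam1 and 60.1% (58.5–61.7) without, and in 65.3% (62.8–67.8) and 65.5% (63.8–67.2) in the metastatic library. In aerocyte-like cells, for Icam1 and Icam2, the shares were 82.9% (79.8–85.7) with and 74.2% (70.7–77.4) without in the control, and 89.1% (86.3–91.6) and 80.3% (76.6–83.7) in the metastatic library, and these intervals were apart. At least 3 of the 5 molecules were seen in 15.4% (11.2–20.6) of control and 20.8% (16.4–25.8) of metastatic vein-like cells. This was the case for 0.445% (0.279–0.673) and 1.01% (0.737–1.35) of gCap-like and 0.295% and 0.745% of aerocyte-like cells. All 5 were seen in 0 control cells and in 2 metastatic cells, both vein-like.

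Capillary cells were next arranged by their own Icam1 count, since Icam1 is the one inducible member dense enough to grade cells. At 2000 UMIs per cell, 73.9% of control gCap-like cells held 0 Icam1 UMIs, 18.2% held 1, 5.11% held 2 and 2.81% held 3 or more, and in the metastatic library the shares were 68.8%, 19.8%, 6.55% and 4.77%. In the metastatic library Inhbb was seen in 2.74% (2.19–3.38) of cells with 0, 4.18% (2.96–5.72) with 1, 9.25% (6.18–13.2) with 2 and 14.1% (9.71–19.5) with 3 or more Icam1 UMIs. In the control library the same strata held Inhbb in 0.793%, 1.22%, 0.791% and 2.16% of cells, with overlapping intervals. Vcam1 was graded in both libraries, from 0.684% (0.443–1.01) to 4.32% (1.60–9.16) in the control and from 1.14% (0.795–1.58) to 7.98% (4.72–12.5) in the metastatic library.

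**Figure D4:**
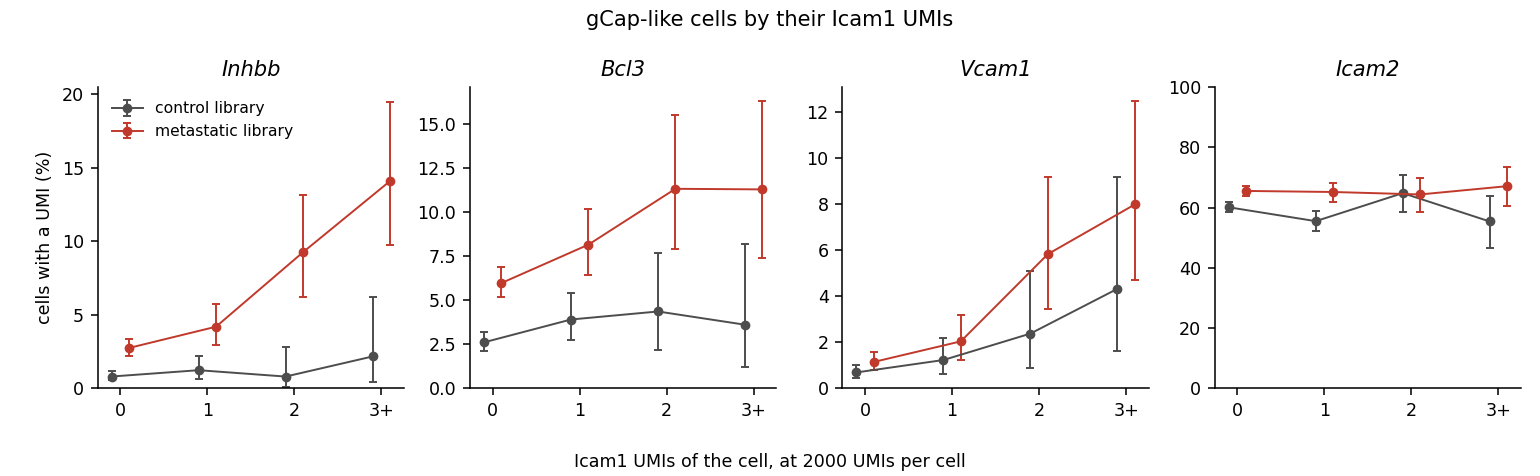
Share of gCap-like cells (%) with a UMI of Inhbb, Bcl3, Vcam1 or Icam2, by the number of Icam1 UMIs in the cell at 2000 UMIs per cell, control in gray and metastatic in red, with exact 95% binomial intervals. Inhbb climbs to 14.1% in metastatic cells with 3 or more Icam1 UMIs and stays at or under 2.16% in the control; Icam2 lies between 55.4% and 67.1% throughout.

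Bcl3 was seen in 5.96% (5.15–6.86) of metastatic gCap-like cells without Icam1 and in 11.3% (7.35–16.3) with 3 or more UMIs, against 2.60% (2.11–3.17) and 3.60% (1.18–8.19) in the control library. Pim3, also an rCap gene, went from 30.9% (29.4–32.4) to 38.1% (30.0–46.7) in the control and from 31.4% (29.8–33.1) to 38.0% (31.5–44.9) in the metastatic library, with overlapping intervals. Icam2 showed no grade, with 65.5%, 65.2%, 64.4% and 67.1% in the metastatic library. In aerocyte-like cells, which hold more Icam1, Inhbb was rare at every Icam1 count, at 0.795% (0.217–2.02) with 0 and 1.84% (0.381–5.28) with 3 or more in the metastatic library. There Bcl3 was at 3.38% (1.98–5.36) and 9.82% (5.72–15.5), which do not overlap. The strata were described after the values of the libraries were known.

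Other genes of leukocyte capture were read in the same classes, over lists that were written with earlier results of these data known. Of 15 further adhesion receptors and sialomucins, 12 were measured in gCap-like cells, with 1 higher by 0.5 or more and 1 lower and a median of 0.06. Mcam, which encodes the adhesion molecule CD146, was higher (71.3 to 103 CPM, 0.54), and Alcam, a ligand of CD6, was lower (8.88 to 5.65 CPM, -0.65). Pecam1, the target of the sort, was at 1070 and 1057 CPM. In vein-like cells 11 were measured and 2 were higher, Alcam (12 and 47 UMIs, 1.69) and F11r, which encodes JAM-A (0.52).

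P-selectin needs a storage granule, and 6 genes of that granule were measured in gCap-like cells, with 0 higher and 1 lower (median -0.11). This was Rab27a, a GTPase of granule release, at 91.3 and 59.9 CPM (-0.61, -0.69 to -0.52). Vwf, its main cargo, was at 2332 and 2257 CPM in vein-like cells, against 129 and 115 CPM in gCap-like cells, so the storage cargo followed the class order of Selp. Rab3d was higher in vein-like cells (37 and 74 UMIs, 0.72), where 5 of the 6 were measured. Of 7 enzymes that build selectin ligands 4 were measured in gCap-like cells, and 1, Gcnt1, was higher (22 and 34 UMIs, 0.71, -0.10 to 1.56), with a median of 0.24.

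Linker proteins that tether ICAM and VCAM tails to actin, with the tetraspanins that cluster them, were nearly level, with 1 of 11 higher in gCap-like cells (Actn1, alpha-actinin, 26.4 to 46.3 CPM, 0.81) and a median of 0.16. In vein-like cells 3 of 11 were higher: Ezr (0.89), Flna (0.79) and Actn1 (0.52). Of 13 cytokine receptor and NF-kB genes 3 were higher in gCap-like cells and 0 lower, with a median of 0.29. They were Nfkb2 (10.1 to 21.4 CPM, 1.08), Tnfaip3, which encodes the inhibitor A20 (9.38 to 17.9 CPM, 0.93), and Relb (21.2 to 38.7 CPM, 0.87). The receptor genes Tnfrsf1a (0.25) and Il1r1 (0.40) lay under 0.5, as did the inhibitor Nfkbia (-0.08). In vein-like cells 4 of 11 were higher: Relb (0.94), Tnfaip3 (0.85), Nfkb2 (0.83) and Traf2 (0.57). The myeloid gene Lyz2 was at 26.7 and 592 CPM in the same vein-like cells, and the part of myeloid RNA in these ratios was not tested.

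The rCap genes are not independent evidence, since the study picked them with these libraries among its data. In gCap-like cells 2 of 7 passed 0.5, Inhbb (5.20 to 32.4 CPM, 2.64) and Bcl3 (16.1 to 43.5 CPM, 1.44), with 0 lower and a median of 0.37. In vein-like cells 1 of 6 was higher, Bcl3 (1.16), and 1 lower, Adamts9 (-0.71). Leukocyte counter-receptors bind these molecules from the other cell, but the list is no clean sign of leukocyte RNA. Itgb1 was at 777 and 787 CPM in gCap-like cells, where Ptprc was at 9.44 and 13.9 CPM. In control aerocyte-like cells Itga4 (6.36 CPM) and Itgb7 (3.36 CPM) lay above the control gCap-like levels of 2.96 and 0.872 CPM. Ptprc lay below, at 2.12 CPM. Of 9 measured in gCap-like cells 5 were higher, with a median of 0.51, among them Itgal, the alpha chain of LFA-1 (60 and 111 UMIs, 0.97), Itga4, the alpha chain of VLA-4 (95 and 139 UMIs, 0.63), Spn (1.67) and Itgb7 (0.74). In vein-like cells 1 of 2 was higher, Cd44 (1.82), and the other was Itgb1 (-0.11). Their part in the levels of the 5 adhesion molecules was not tested.

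The genes whose levels most resembled each member were found by Pearson's r of log2(CPM + 1) over the 8 points of 4 classes and 2 libraries, among 11729 genes. The points share libraries and cells, so r is a description. Selp was closest to Itgb4 (0.997), Vcam1 (0.996) and Tgfb2 (0.994), and Vcam1 to Selp (0.996), Itgb4 (0.996) and Tgfb2 (0.990). Icam1 was closest to Cltb (0.990), Apbb2 (0.980) and Plec (0.979), and Icam2 to Rapgef5 (0.992), Nid1 (0.991) and Gadd45b (0.987). Sele, on 323 UMIs, had no gene above 0.944, the value of Ahsa2, followed by Prkra and Zfpm1 (0.936 each). Among the 5 members only Selp and Vcam1 were each among the other's closest genes.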

How the data were processed

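Pecam1-sorted lung cells of 1 control and 1 metastatic library were analysed. The deposited values are raw UMI counts per gene and barcode, which the authors produced with Cell Ranger on mm10 from the 10x Genomics 3′ kit. Per the file header the matrices were written by version 3.1.0, and 6794880 barcodes are listed per library, with no cells called. The libraries held 67929614 and 64733724 UMIs, and medians per gCap-like cell were 5950.5 and 6275. No column went unused.

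Counts were read with Python 3.11.15 (numpy 2.4.6, scipy 1.17.1, pandas 2.3.3). UMIs were summed per class and divided by the class total to give CPM. Levels carry exact Poisson, shares Clopper-Pearson and log2 ratios exact conditional binomial intervals at 95%, where a count of 0 was set to a floor of 3 counts. UMIs of 1 gene in 1 barcode come from 1 cell, so these intervals are lower limits of the error. Doublets were kept, and an alternative left out 407 and 334 cells with the highest scores against simulated doublets (scikit-learn 1.9.0, 10 neighbors, 0.8% per 1000 cells). The free RNA profile came from barcodes with 11 to 50 UMIs (76646 and 52468 UMIs). TMM scaling used edgeR 4.0.16 in R 4.3.3. Scripts were tested on simulated data. Lymphoid-like cells (40 and 42) held at least 2 B or at least 2 T or NK markers and neither Cdh5 nor Cldn5.

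The 5 members and all gene lists were chosen with earlier results of these data known. Named are the members, list genes past 0.5 in gCap-like or vein-like cells, defining markers of other cell types, and the 3 genes closest to each member. Genes of Sele-bearing cells, rCap genes by Icam1 count, and Tnfrsf1a, Il1r1 and Nfkbia were named after their values were seen. Promoters are from RefSeq (GRCm38.p6); 3 of 5 members matched. The alternatives without the top Sele cell, and without cells that held epithelial or myeloid markers, were chosen after the data were seen. Some genes that meet these rules are not reported here.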

Additional observations from a re-analysis of the deposited data

Results flagged for a closer look

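Cells of no class and barcodes with few genes were no part of the comparisons, and 5 values there were higher in the metastatic library. Cells of several classes (46 and 32) went the other way, with ratios of -1.74 (-2.97 to -0.68) for Sele, -0.36 (-0.60 to -0.13) for Vcam1 and -0.38 (-0.65 to -0.11) for Icam1, and 1 control cell held all 41 control UMIs of Sele there. Among called cells of no class (394 and 466), Sele was at 1.42 CPM (3 UMIs) in the control and 42.0 CPM (104 UMIs) in the metastatic library, which gives a log2 ratio of 4.89 (3.30–7.19), and Icam1 at 110 and 234 CPM, a ratio of 1.09 (0.87–1.32). No-class cells with Cdh5 (243 and 282) held Icam1 at 114 and 333 CPM, and 97 of the 104 Sele UMIs. Those without Cdh5 (151 and 184) held Icam1 at 105 and 119 CPM.

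Barcodes with at least 300 but under 1000 genes (2284 and 2579), too few to be called cells, held 0 and 13 Sele UMIs, at least 2.05 higher on the log2 scale. In the same barcodes Vcam1 had a ratio of 0.80 (0.28–1.32; 50 and 91 UMIs) and Icam1 of 0.65 (0.42–0.87; 262 and 430 UMIs). Icam2, at 301 and 299 CPM, had a ratio of -0.01 (-0.16 to 0.14). None of these was set against replicates.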

How the results depend on the processing

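Each group held 1 library, so no replicate could be left out. No paired analysis was possible because each group held 1 library. Of the per-class ratios under all alternatives, 294 stayed within the counting interval of the value reported, 40 moved out of it and 7 reversed. Over all 4 classes the numbers were 71, 17 and 1.

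With 3 or more class markers the ratios over all classes were 1.17 for Sele, 0.42 for Vcam1 and 0.41 for Icam1, and the aerocyte-like ratios reversed to -2.04 for Sele, -2.34 for Selp and -2.15 for Vcam1. With cells of 2 classes counted in, Sele was 2.35 and Vcam1 0.43 over all classes, and -1.62 and -1.36 in aerocyte-like cells, where 1 control cell holds 41 Sele and 197 Vcam1 UMIs. Means over cells gave 4.75 for Sele and 0.74 for Vcam1. Without doublets Selp was 0.27. Without cells that held other-cell markers, which left 1255 of 6694 control and 2000 of 5968 metastatic cells, Vcam1 was 0.80. Without platelet, leukocyte, mesenchymal or lymphatic markers, an alternative added after the data were seen, Icam2 was 0.20. TMM and median ratio scaling gave 0.15 each for Icam2.

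Subtracting free RNA at the summed share (61.5% and 28.1% of gCap-like UMIs) reversed Vcam1 to -0.40 over all classes, -3.65 in gCap-like and -1.36 in aerocyte-like cells, and gave 0.25 for Icam1 and -0.44 for Icam2. At the share of the median cell (9.36% and 4.97%), added after the data were seen, Vcam1 was 0.46, Selp 0.79 and Icam2 0.10. The cause was not tested for the other shifts.

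Genes past 0.5 depended on the minimum count. With at least 100 UMIs, 547 of 11220 gCap-like genes were higher (4.88%) and 291 lower (2.59%). The counts were 363 (3.82%) and 180 (1.89%) in aerocyte-like, 132 (7.22%) and 117 (6.4%) in artery-like and 313 (5%) and 215 (3.43%) in vein-like cells. With 1 UMI in each library 2124 of 17008 gCap-like genes were higher (12.5%) and 1837 lower (10.8%), against 6.19% and 3.44% in the main setting. There the counts were 1992 (13.5%) and 1341 (9.09%) in aerocyte-like, 2490 (23.4%) and 1948 (18.3%) in artery-like and 2186 (17.1%) and 1370 (10.7%) in vein-like cells. Depth limits Sele and Selp in aerocyte-like and artery-like cells, where at most 24 UMIs were counted per library.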
